A study of Mus musculus with 2 samples.

Results

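Accessible chromatin was examined at cytokine receptor genes in B cells of the mouse spleen, namely at Il4ra, Il21r, Il10ra, Ifngr1, Ifnar1, Il2ra, Il2rb, Il5ra and Il6ra. They were chosen by name as receptor chains through which B cells receive cytokines, and are 9 of 22350 protein-coding genes of the GENCODE M1 annotation on chromosomes 1 to 19 and X. DNase I cuts open DNA more readily than DNA wrapped in nucleosomes, and a stretch where its cuts pile up is a DNase I hypersensitive site (DHS). Every DHS that overlapped the body of one of these genes, or the 50 kb on either side, was assigned to it. This gave 117 distinct DHS of 47474 on the same chromosomes, and 134 assignments, because 17 DHS lay in the windows of both Il4ra and Il21r. All coordinates are on mouse build mm9 and are counted from 1.

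The cells came from the spleen of 8 weeks old C57/Bl6 mice of genotype Trp53+/+ given the mock treatment, and were enriched on magnetic beads against B220, a surface protein of B cells that plasmacytoid dendritic cells also carry. The series holds 2 samples, 1 DNaseI library and 1 input library that was not used here on its own. There are no replicates, so each value below describes a single library, no spread between samples can be given, and no test was possible. The list of DHS gives no read counts and the depth is unknown, so a gene without a DHS is one where none was called.

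The label of the cells was checked on marker genes. A DHS was called promoter when it overlapped the interval from 5 kb upstream to 2 kb downstream of an annotated transcription start site (TSS). All 10 B cell markers, among them Cd79a, Cd79b and Pax5, had a promoter DHS, and all 10 had one over a TSS. Of 10 T cell markers only Cd5, which a subset of B cells also expresses, had one, and Cd3d, Cd3e, Cd3g, Cd4 and Cd8a had none. Promoter DHS were also called at 2 of 5 markers of NK cells (Klrb1c and Prf1, scores 16.1 to 26.0), 3 of 8 of myeloid cells (Itgam, Elane and Cd14, 18.2 to 51.0) and 2 of 4 of plasmacytoid dendritic cells (Bst2 and Ccr9, 49.3 to 96.3), whereas Ncr1, Klrd1, Gzma, Lyz2, Csf1r, Mpo, S100a8, S100a9, Siglech and Klk1 had none. The score is the value that the authors' peak caller attached to each DHS. Its scale is not stated, and it is used here only to rank DHS within this list, where it ran from 5.05 to 619 with a median of 32.65.

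Cytokine receptors of this kind have no enzyme activity of their own. Binding of the ligand brings together a private chain and a partner chain, the JAK kinases bound to their tails phosphorylate each other and the receptor, and the STAT proteins recruited there move to the nucleus as transcription factors. In B cells these receptors carry the T cell and innate signals that steer survival, class switching and the formation of plasma cells, and suppressors such as the SOCS proteins end the signal.

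Of the genes, 8 of 9 (88.9%, exact binomial 95% interval 51.8 to 99.7, counting error only), had at least 1 DHS at their own promoter, against 57.0% of all protein-coding genes, which lies inside this interval. Il2rb was the exception. A DHS lay directly over an annotated TSS in 7 of the 9, against 46.6% of all genes, with Il2rb and Il5ra lacking one. A DHS fell inside the gene body in 8 of 9, again all but Il2rb, against 57.9% of all genes. CpG-rich start sites are accessible in most tissues, and a first TSS counted as such here when GC made up 55% or more of the surrounding 1000 bp and CpG pairs reached 0.6 of the number that its base composition predicts. Il4ra, Ifngr1, Ifnar1 and Il6ra met this, and 4 of 4 had a promoter DHS, against 85.5% of all genes with such a start. Of the 5 others, Il21r, Il10ra, Il2ra and Il5ra had one (80.0%), against 39.2% of all genes without a CpG-rich start.

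The highest promoter DHS of the 8 genes scored 170 for Ifnar1, 143 for Ifngr1, 137 for Il10ra, 131 for Il21r, 95.6 for Il6ra, 93.4 for Il4ra, 65.1 for Il2ra and 62.1 for Il5ra. The median of these was 113, beside 101 over all 12747 genes with a promoter DHS, whose quartiles were 59.0 and 152. This order turned with the 1 kb interval (95.6 against 102) and with the centre rule (94.9 against 101). Both interferon receptor chains headed the order, and Il2ra and Il5ra, the private chains of the receptors for IL-2 and IL-5, closed it, just above the lower quartile of all genes. The value of Il2ra rests on a DHS that only reaches into the promoter interval, and with the DHS centre required inside the interval it was 31.0, under that quartile. How far neighbours in this order would differ in another library is unknown.

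**Figure D1:**
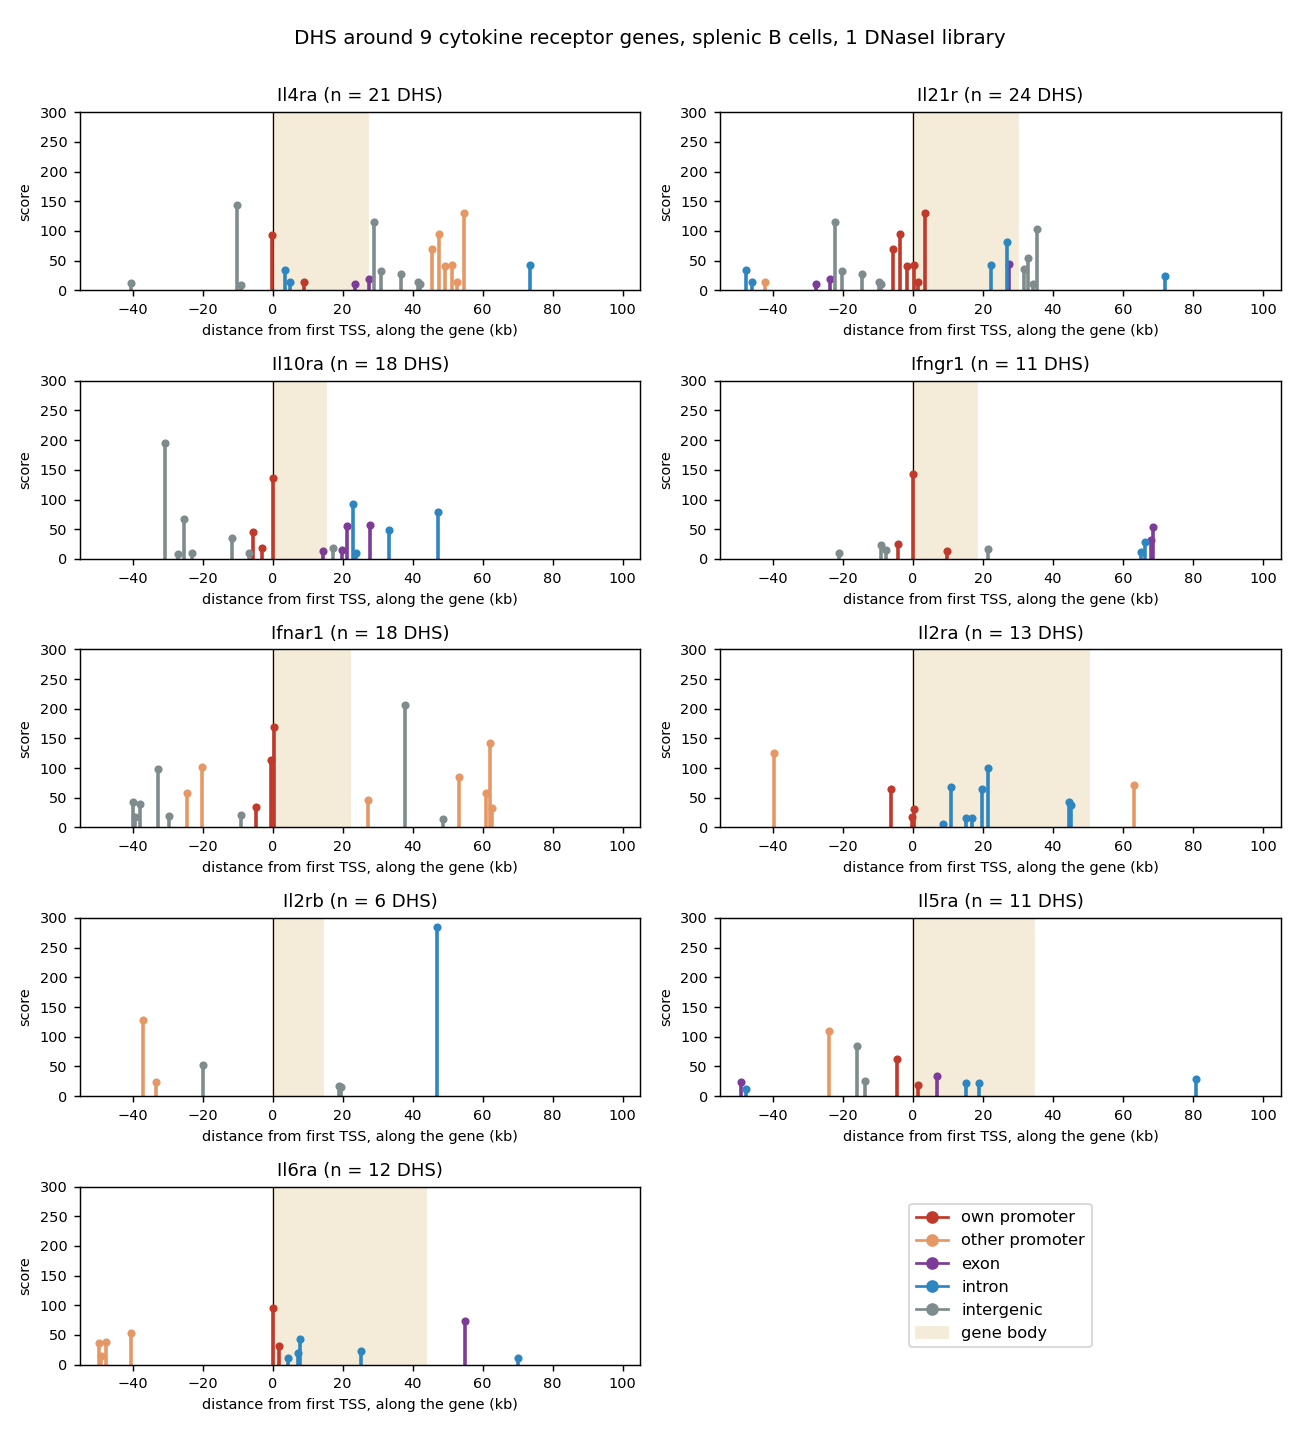
Position and score of every DHS (134 assignments) around the 9 receptor genes, 1 panel a gene. The x axis is the distance of the DHS centre from the first TSS in kb, in the direction of transcription, the y axis is the authors' score, colours give the class of the DHS, and the shaded band is the gene body. Il2rb has no DHS in its body or at its promoter, while Il21r has 6 at its promoter and Il2ra has 8 in its introns.

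Il4ra, on chromosome 7 (chr7:132695785-132722986, plus strand), encodes the chain that binds IL-4 and, with different partners, forms the IL-4 and IL-13 receptors. IL-4 drives B cells to switch to IgG1 and IgE. The window of Il4ra held 21 DHS, as many as or more than 98.7% of all protein-coding genes (its percentile). Its start site lay under a DHS 1601 bp wide with a score of 93.4, and a second promoter DHS, scoring 13.5, lay in intron 1 upstream of an internal TSS. The highest DHS of the window outside any promoter was intergenic, centred at -10179 bp from the first TSS, and scored 144. The central 300 bp of that upstream DHS (plus strand) and the 150 bp before the first TSS (plus strand) are shown because they carry the highest distal and the highest promoter signal of the gene. Capitals in this and all later sequences mark the words searched for, which are spelled out with the motif counts.
Il4ra upstream DHS, chr7:132685456-132685755: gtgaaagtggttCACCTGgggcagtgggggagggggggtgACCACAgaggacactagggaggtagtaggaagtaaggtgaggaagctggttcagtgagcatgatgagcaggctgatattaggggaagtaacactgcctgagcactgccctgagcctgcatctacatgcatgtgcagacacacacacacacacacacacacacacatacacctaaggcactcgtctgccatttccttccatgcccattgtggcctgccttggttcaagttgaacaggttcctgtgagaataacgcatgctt
Il4ra before the first TSS, chr7:132695635-132695784: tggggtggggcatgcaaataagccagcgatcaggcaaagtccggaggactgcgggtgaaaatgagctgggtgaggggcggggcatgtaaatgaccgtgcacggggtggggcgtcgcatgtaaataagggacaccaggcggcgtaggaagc
The upstream stretch holds an E-box word and a Runx word. None of the 10 words occurs in the stretch before the start site, whose GC content is 60.7%.

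Il21r lies downstream of Il4ra on the same strand (chr7:132746943-132777084) and encodes the chain for IL-21, the cytokine of follicular helper T cells that supports germinal centres and plasma cells. Its window held 24 DHS, the most of the 9 genes (percentile 99.4 of all genes). Of these DHS 6 counted as promoter, with scores of 70.0, 94.2, 40.4, 43.0, 13.6 and 131 from upstream to downstream. The DHS over the TSS itself scored 43.0, and the highest, 3088 bp wide and centred at 3585 bp in intron 1, scored 131. That DHS reached the promoter interval by only 24 bp, through the second of 2 annotated TSSs, and the outermost upstream one by 41 bp. With the centre of the DHS required inside the interval, the highest promoter DHS of Il21r was the one at -3569 bp, scoring 94.2. The central 300 bp of both are shown on the plus strand.
Il21r intron 1 DHS, chr7:132750379-132750678: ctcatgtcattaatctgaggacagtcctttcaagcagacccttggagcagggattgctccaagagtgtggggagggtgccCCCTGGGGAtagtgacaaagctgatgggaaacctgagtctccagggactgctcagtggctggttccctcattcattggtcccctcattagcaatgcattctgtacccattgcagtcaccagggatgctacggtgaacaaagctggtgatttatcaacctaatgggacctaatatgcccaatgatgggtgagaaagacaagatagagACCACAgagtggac
Il21r upstream DHS, chr7:132743224-132743523: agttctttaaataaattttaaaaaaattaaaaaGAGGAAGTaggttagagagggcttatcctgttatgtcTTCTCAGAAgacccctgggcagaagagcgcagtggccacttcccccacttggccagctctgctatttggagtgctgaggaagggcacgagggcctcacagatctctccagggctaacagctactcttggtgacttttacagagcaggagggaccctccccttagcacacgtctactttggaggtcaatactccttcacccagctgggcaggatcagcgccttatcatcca
The intronic stretch holds an Ebf1 word and a Runx word, and the upstream stretch holds a PU.1 word and a STAT word. It is 1 of 7 of the 117 central stretches with a STAT word.

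Il4ra and Il21r share a dense block of open chromatin. Joined at gaps under 10 kb, 13 DHS formed 1 cluster from exon 11 of Il4ra through the intergenic region into intron 1 of Il21r (chr7:132718950-132752072, 33.1 kb). Of all clusters of DHS built the same way, 0.607% held as many or more. Within it the intergenic DHS 28859 bp downstream of the Il4ra start scored 114, the highest distal DHS in the window of Il21r, and the 300 bp at its centre (plus strand) hold none of the 10 words.
Il4ra and Il21r shared DHS, chr7:132724494-132724793: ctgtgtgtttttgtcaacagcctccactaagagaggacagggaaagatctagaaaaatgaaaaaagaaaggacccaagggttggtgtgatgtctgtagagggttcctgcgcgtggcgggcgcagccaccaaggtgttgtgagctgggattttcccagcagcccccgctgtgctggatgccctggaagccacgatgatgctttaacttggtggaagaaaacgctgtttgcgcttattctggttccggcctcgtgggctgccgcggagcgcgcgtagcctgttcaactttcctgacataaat
A further cluster of 7 DHS covered the 3′ part of Il21r and the region behind it, where an intergenic DHS at 35501 bp scored 104 and 1 in intron 7 scored 80.8. Which of both genes, if either, any of the shared DHS serves cannot be read from a list of positions.

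Il10ra, on chromosome 9 (chr9:45061922-45077232, minus strand), encodes the ligand-binding chain for IL-10, a cytokine best known for damping inflammation. Its window held 18 DHS (percentile 97.2). The DHS over its single TSS was 4473 bp wide, the widest in any of the 9 windows, and scored 137, and the other promoter DHS scored 18.7 and 45.0. The gene body itself held only 2 DHS, the promoter DHS and one in exon 7 scoring 12.7. Downstream, 7 DHS with scores from 9.65 to 93.2 lay in BC049352, the next annotated gene. The highest of the window was intergenic, at -30830 bp, and scored 196. Its central 300 bp, on the minus strand, hold words for E-box, Runx, STAT6 and Ets-IRF, and are shown with the 150 bp before the TSS, which hold none.
Il10ra upstream DHS, chr9:45107912-45108211: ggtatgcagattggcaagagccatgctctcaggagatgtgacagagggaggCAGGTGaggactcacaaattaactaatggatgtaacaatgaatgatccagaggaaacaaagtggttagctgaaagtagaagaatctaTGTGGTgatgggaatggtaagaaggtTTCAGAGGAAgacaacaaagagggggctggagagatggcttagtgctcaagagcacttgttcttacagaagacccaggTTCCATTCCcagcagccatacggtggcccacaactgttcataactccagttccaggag
Il10ra before the TSS, chr9:45077233-45077382: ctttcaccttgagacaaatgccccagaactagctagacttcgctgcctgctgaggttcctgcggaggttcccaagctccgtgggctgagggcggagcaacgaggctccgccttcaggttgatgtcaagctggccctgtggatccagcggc

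Ifngr1 and Ifnar1 encode the ligand-binding chain for interferon gamma and a chain of the receptor shared by type I interferons. Ifngr1 (chr10:19311755-19330035, plus strand) had 11 DHS (percentile 85.0), of which the one over its start scored 143 and the rest scored at most 53.8. Its 2 further promoter DHS scored 24.6 and 13.3, the latter in intron 3 near an internal TSS. Of the 11, 2 scored at or above the median of the whole list, namely the one over the start and one scoring 53.8. The latter lay 68511 bp from the start, in exon 4 of 9230106D20Rik.
Ifngr1 before the first TSS, chr10:19311605-19311754: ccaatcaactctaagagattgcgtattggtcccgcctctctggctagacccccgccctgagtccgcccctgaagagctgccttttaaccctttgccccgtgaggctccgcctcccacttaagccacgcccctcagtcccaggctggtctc
This stretch, on the plus strand, is shown as the start of the gene whose promoter DHS most outscored its surroundings. Its GC content is 61.3%, and it holds none of the 10 words.

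Ifnar1 (chr16:91485483-91507686, plus strand) had 18 DHS (percentile 97.2) and the highest promoter score of the 9 genes, 170. The DHS with that score covered 3 of the 5 annotated TSSs but not the first, a separate DHS immediately upstream, at -510 bp, scored 114, and the third promoter DHS, at -4723 bp, scored 33.9. Beyond the first of these the gene body held no DHS. The highest DHS of the window was intergenic, at 37763 bp from the start, which is downstream of the gene, and scored 206. Ifngr2, the partner chain of Ifngr1, lies in the same window, and its promoter carried 3 of the DHS, with scores of 57.4, 142 and 33.3. The central 300 bp of the intergenic DHS (plus strand) hold none of the 10 words and are shown as the highest-scoring DHS between both receptor genes.
Ifnar1 downstream DHS, chr16:91523096-91523395: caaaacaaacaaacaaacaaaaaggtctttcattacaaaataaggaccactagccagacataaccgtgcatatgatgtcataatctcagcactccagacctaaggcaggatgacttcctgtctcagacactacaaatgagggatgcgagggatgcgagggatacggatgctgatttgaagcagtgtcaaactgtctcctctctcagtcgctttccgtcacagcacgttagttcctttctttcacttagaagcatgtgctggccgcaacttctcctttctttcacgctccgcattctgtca

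Il2ra, on chromosome 2 (chr2:11564419-11614818, plus strand), encodes CD25, the chain that raises the affinity of the IL-2 receptor and is induced on activated T and B cells. Most of its DHS lay in introns. The DHS over its start scored 31.0, and the other promoter DHS scored 17.1 and 65.1, the latter at -6216 bp and reaching the promoter interval by 283 bp. In intron 1 lay 6 DHS, with scores of 5.90, 69.0, 16.5, 15.6, 65.6 and 101 in the order of transcription, and 2 in intron 7, with 43.1 and 38.6. The body of Il2ra thus held 9 DHS, the most of the 9 genes, of which it is also the longest (50.4 kb). The highest of these DHS, 21472 bp into the gene, scored above the start of Il2ra, and the lowest, 5.90, was near the lowest score of the list (5.05). Neither an exonic nor an intergenic DHS was called in its window of 13, and the remaining 2 were at the promoters of Rbm17 (125) and of Il15ra (71.7), the IL-15 receptor chain. Il2ra is also a T cell gene, and 9 of 10 T cell markers, the Cd3 genes included, had no promoter DHS called. Whether T cells contributed to the DHS of Il2ra was not tested. In a bulk library, a weak site in all B cells and a strong one in few cells of the preparation cannot be told apart. The stretches shown, on the plus strand, are the centres of the highest and second highest DHS of intron 1.
Il2ra intron 1 DHS at 21472 bp, chr2:11585741-11586040: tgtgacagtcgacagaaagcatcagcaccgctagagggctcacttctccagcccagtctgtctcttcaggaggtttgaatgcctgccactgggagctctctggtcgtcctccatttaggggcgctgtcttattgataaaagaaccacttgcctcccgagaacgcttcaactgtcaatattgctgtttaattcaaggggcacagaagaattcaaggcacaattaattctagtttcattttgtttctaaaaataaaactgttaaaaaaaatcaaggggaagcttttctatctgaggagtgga
Il2ra intron 1 DHS at 10740 bp, chr2:11575010-11575309: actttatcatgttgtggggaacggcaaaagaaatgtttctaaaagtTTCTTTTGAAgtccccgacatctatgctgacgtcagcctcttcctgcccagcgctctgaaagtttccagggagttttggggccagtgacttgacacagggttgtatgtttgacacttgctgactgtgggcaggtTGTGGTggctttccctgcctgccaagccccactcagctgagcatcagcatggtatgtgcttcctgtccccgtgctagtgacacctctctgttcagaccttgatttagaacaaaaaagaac
The former holds none of the 10 words, and the latter holds a STAT6 word and a Runx word.

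Il2rb, on chromosome 15 (chr15:78310983-78325496, minus strand), encodes the signalling chain shared by the receptors for IL-2 and IL-15, abundant on NK cells and on activated or memory T cells. No DHS was called in its body or at its promoter. The nearest DHS was 4352 bp from the gene body and 17555 bp from the nearest TSS. With 6 DHS its window was the sparsest of the 9 (percentile 62.6), yet above the median of all genes. The highest, scoring 284, lay in intron 10 of Tmprss6, at 47054 bp, and was the highest DHS in any of the 9 windows. At the promoter of C1qtnf6 lay 2, with scores of 128 and 23.3, and the intergenic ones scored 53.1, 17.2 and 15.1. The markers of NK cells, which carry much of this chain, had promoter DHS at 2 of 5.

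Il5ra, on chromosome 6 (chr6:106660378-106695103, minus strand), encodes the chain specific for IL-5, known on B-1 cells and eosinophils. Its start site was not covered, and the nearest DHS was 1176 bp away. The promoter calls rested on a DHS at -4608 bp, scoring 62.1, and a DHS in intron 2 at 1362 bp, scoring 19.1, so that Il5ra lost its promoter call when the interval was narrowed to 1 kb on either side of the TSS. Further DHS followed in exon 6 (33.9) and intron 8 (22.7 and 22.8). The highest distal DHS of its 11 (percentile 85.0) was intergenic at -16007 bp and scored 84.8, and the highest of all, 109, was at the promoter of Trnt1. The centre of the intergenic DHS, on the minus strand, holds a Runx word.
Il5ra upstream DHS, chr6:106710961-106711260: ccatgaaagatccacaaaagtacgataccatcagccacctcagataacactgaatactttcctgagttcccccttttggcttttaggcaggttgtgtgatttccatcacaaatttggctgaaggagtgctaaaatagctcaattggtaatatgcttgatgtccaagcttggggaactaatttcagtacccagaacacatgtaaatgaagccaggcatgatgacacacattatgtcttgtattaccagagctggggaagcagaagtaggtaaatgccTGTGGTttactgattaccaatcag

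Il6ra, on chromosome 3 (chr3:89673246-89717084, minus strand), encodes the chain that binds IL-6, a growth factor of plasma cells. Its start lay under a DHS scoring 95.6, followed by a promoter DHS in intron 1 scoring 31.8. Intron 1 held 3 more DHS (10.9, 20.3 and 43.2) and intron 3 held 1 (23.1). The highest DHS of the window outside any promoter scored 73.8 and lay in exon 6 of She, and 4 of the 12 DHS (percentile 88.0) were at promoters of Atp8b2. The centre of the intron 1 promoter DHS, on the minus strand, holds a Runx word, and a PU.1 and an Ets-IRF word that overlap each other.
Il6ra intron 1 promoter DHS, chr3:89715104-89715403: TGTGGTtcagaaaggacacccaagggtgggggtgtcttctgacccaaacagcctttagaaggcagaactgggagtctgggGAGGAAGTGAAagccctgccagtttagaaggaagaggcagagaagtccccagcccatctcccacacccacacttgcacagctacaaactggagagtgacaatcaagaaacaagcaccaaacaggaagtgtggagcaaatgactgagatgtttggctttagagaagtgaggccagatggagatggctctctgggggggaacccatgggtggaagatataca

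**Figure D2:**
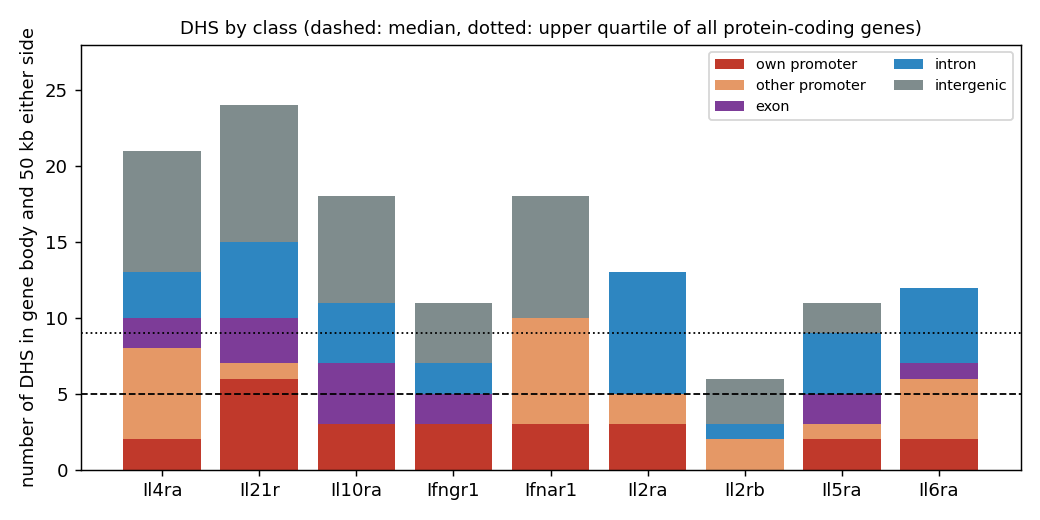
Number of DHS in the body of each receptor gene and the 50 kb on either side, split by class, with the median of 5 and the upper quartile of 9 over all protein-coding genes as lines. Counts run from 6 for Il2rb to 24 for Il21r, and 8 of 9 bars pass the upper line.

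Set side by side, the windows were rich in DHS. All 9 genes had more DHS than the median protein-coding gene, which had 5, and 8 of 9 had more than the upper quartile of 9. Per 100 kb of window, which allows for the length of the gene, values ran from 5.24 for Il2rb to 18.4 for Il21r, and 9 of 9 exceeded the median over all genes (3.38) and 8 of 9 the upper quartile (6.91). Il4ra, Il21r, Il10ra and Ifnar1 were the densest, with 14.7 to 18.4 per 100 kb. Il5ra, Il6ra, Il2ra and Ifngr1 had 8.16 to 9.30. The median per 100 kb was 9.30 for the 9 genes, beside 10.4 for the B cell markers and 9.54 for the JAK and STAT genes. It was 8.66 for the inhibitors and 7.91 for the partner chains of the pathway lists below. The ligands had 3.22, the receptors of other lineages 3.13 and the T cell markers 5.08. A dense window was thus not particular to the 9 receptor genes. The counts of Il4ra and Il21r are not independent, as they share 17 DHS.

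Much of this density lay away from promoters. Of the 117 DHS, 40 were at a promoter of any gene (34.2%, interval 25.7 to 43.5), against 47.5% of all DHS. Exonic DHS made up 10.3% (5.41 to 17.2) against 5.15%, intronic 24.8% (17.3 to 33.6) against 21.7%, and intergenic 30.8% (22.6 to 40.0) against 25.7%. Neighbouring DHS are not independent, so these intervals, which cover counting error only, are too narrow. The DHS of the windows had a median score of 34.4 against 32.6 in the whole list and a median width of 841 bp against 760 bp. Those at promoters had a median width of 1340 bp against 941 bp, and 72.5% of them against 65.5% scored at or above the median of the list. The makeup varied between genes: 7 of the 18 DHS around Ifnar1 were at promoters of other genes and none was exonic or intronic, whereas 8 of 13 around Il2ra were intronic.

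**Figure D3:**
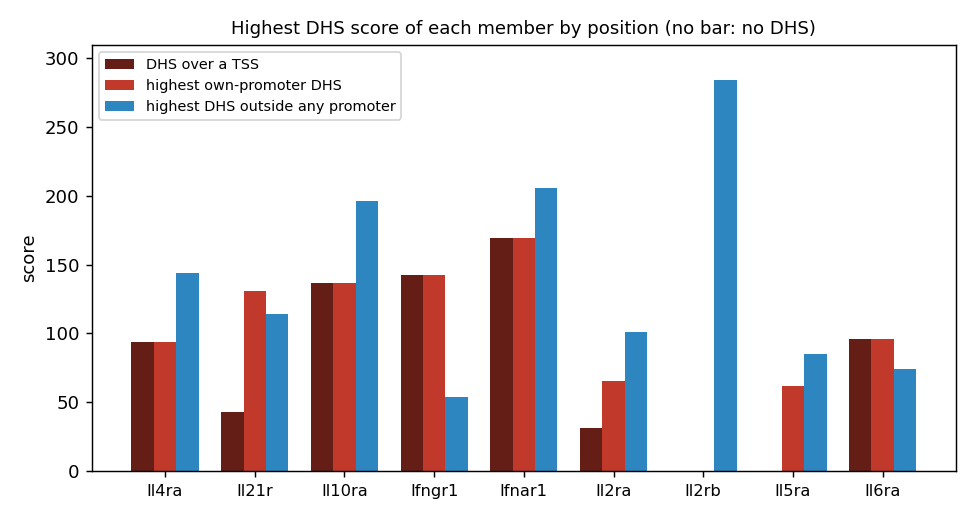
Highest DHS score of each receptor gene at 3 kinds of position: over an annotated TSS, at the gene's own promoter, and in the window but outside any promoter. The third bar is the tallest for Il4ra, Il10ra, Ifnar1, Il2ra, Il2rb and Il5ra, and Il2rb has no other bar.

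In 5 of the 8 genes with a promoter DHS (62.5%), the highest DHS outside any promoter scored above the highest own-promoter DHS: Il4ra (144 against 93.4), Il10ra (196 against 137), Ifnar1 (206 against 170), Il2ra (101 against 65.1) and Il5ra (84.8 against 62.1). Over all genes with a promoter DHS this was so in 20.6%. The comparison was chosen after the values were seen, and windows with more DHS offer more chances of a high one. With the centre rule for promoters Il21r joined them (131 against 94.2), giving 6 of 8 against 22.4%, and with a flank of 10 kb only Il2ra and Il4ra were left, giving 2 of 8 against 9.42%. In Ifngr1 and Il6ra the promoter scored higher at either setting. Within the promoter, the DHS over a TSS was the highest in 5 of the 7 genes that had one, against 86.3% of all such genes, and Il21r and Il2ra were the others.

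Short words resembling the binding motifs of transcription factors were counted in the central 300 bp of the 117 DHS, on both strands. Runx (TGTGGT) was found in 29.1% (21.0 to 38.2) of them against 20.6% of all DHS, and was the only one of the 10 words whose share over all DHS lay outside the interval found around the receptor genes, by a narrow margin and with an interval that is too narrow for neighbouring DHS. In DHS at or above the median score, Runx was in 27.0% of these DHS against 18.2%, and outside promoters in 28.6% (18.8 to 40.0) against 24.3%, which lies inside the interval. The interferon response word (GAAANNGAA) was found in 14.5% (8.70 to 22.2) against 9.25%, and the Ets-IRF word (GGAANNGAA) in 11.1% (6.05 to 18.3) against 9.32%. These last words can overlap each other, and PU.1 (GAGGAAGT) can overlap the Ets-IRF word.

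For the words of the STAT factors the share over all DHS lay inside the interval. The order of both shares turned when whole DHS, which were not matched for length, were searched. The STAT word (TTCNNNGAA) was in 5.98% (2.44 to 11.9) of the DHS around the receptor genes against 8.32% of all DHS, and the STAT6 word, with 1 more base between TTC and GAA, in 5.13% (1.90 to 10.8) against 7.15%. PU.1, a factor of B and myeloid cells, was at 4.27% (1.4 to 9.69) against 3.61%. Outside promoters PU.1 was at 1.30%, which is 1 of 77 DHS, against 4.22%. Ebf1 (TCCCNNGGG), a B lineage factor, was at 4.27% (1.4 to 9.69) against 6.64%. The E-box (CAGGTG), bound by E2A and related proteins, was at 25.6% (18.0 to 34.5) against 24.1%, AP-1 (TGANTCA) at 5.13% (1.90 to 10.8) against 7.62%, and CTCF (CCACNAGGG) at 1.71% (0.208 to 6.04) against 2.60%. In DHS at or above the median score the order turned for the E-box (22.2% against 23.8%) and CTCF (3.17% against 3.06%). A match describes letters and not a bound factor, and all 10 words were counted without a correction for their number.

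The rest of the pathway was read in the same way, as genes with a promoter DHS. All 11 JAK and STAT genes had one, with highest scores from 57.0 at Stat5a to 227 at Jak1 and a median of 165. All 6 inhibitors (the SOCS genes Socs1, Socs2 and Socs3, Cish, the phosphatase Ptpn6 and Usp18, which curbs type I interferon signalling) had one, with scores from 86.7 to 186. The share over all genes, 57.0%, lies below the interval of the JAK and STAT genes (71.5 to 100%) and inside those of the inhibitors (54.1 to 100%) and of the 9 receptor genes.

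Of the partner chains, 6 of 8 had a promoter DHS (interval 34.9 to 96.8%, which holds the 57.0% of all genes). The scores were 304 for Il10rb, the partner of Il10ra, 142 for Ifngr2, 103 for Ifnar2, 85.1 for Il2rg, the common gamma chain, 16.3 for Csf2rb, the beta chain that pairs with Il5ra, and 14.2 for its relative Csf2rb2. Il6st, the gp130 partner of Il6ra, and Il13ra1, the partner of Il4ra in the IL-13 receptor, had none. Both chains of the IL-10 and interferon receptors had a promoter DHS, whereas Il6ra had one and its partner had none called, and the partner of Il5ra was at percentile 3.85 of all promoter scores.

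Of 10 ligand genes, Il10 (22.7), Il15 (46.9) and Ifng (17.5) had a promoter DHS (3 of 10, interval 6.67 to 65.2%), all below the lower quartile of 59.0 over all genes, and none was called at Il4, Il13, Il21, Ifnb1, Il2, Il5 and Il6. None of the 10 ligand genes had a CpG-rich first TSS, and both the 39.2% of all genes without one and the 57.0% of all genes lie inside this interval, so the count does not set the ligands apart. Receptors best known from other lineages or tissues had one in 8 of 16 (interval 24.7 to 75.3%), with a median score of 29.3 among those, beside 113 for the 8 receptor genes with one. Of all genes 57.0% had a promoter DHS, which lies inside this interval too. The lists are short and were described by counts alone.

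**Figure D4:**
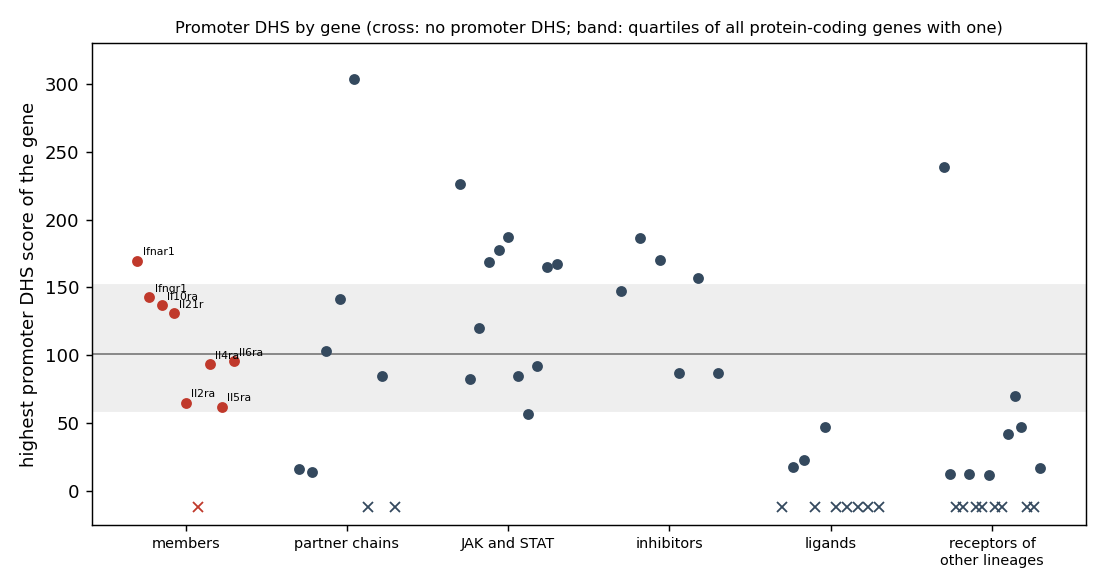
Highest promoter DHS score of each gene in the receptor set and 5 related lists (y axis, authors' score). Points are genes, crosses below 0 are genes without a promoter DHS, and the grey band with its line gives the quartiles and the median of all protein-coding genes with one. All JAK, STAT and inhibitor genes have a point, and 7 of 10 ligands are crosses.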

How the data were processed

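Splenic B cells were profiled in 1 DNaseI library, and the input library of the series was not analysed here. The submitters' processing notes name BWA 0.6.2, SAMtools and build mm9. The authors called peaks with MACS and deposited a score for each peak. The version, the settings and the scale of the score for this library, and whether the input served as control, are not given in the sources used here. The methods state a MACS version and a p-value threshold for ChIP-seq peaks only, and these were not assumed to hold for the DNaseI library. The list held 47542 DHS, of which 47474 were on chromosomes 1 to 19 and X, and a single one ran 52 bp over the chromosome 19 end.

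DHS were related to GENCODE M1 (86916 TSSs) in Python 3.11.15 with pandas 2.3.3 and pysam 0.24.0, with an overlap of at least 1 bp, and classed as promoter, exon, intron or intergenic in that order. Intervals are exact binomial at the 95% level (scipy 1.17.1). The code was tested on simulated data. Depth and replicate error are unknown, so no test was made. All 9 receptor genes are named, with each promoter DHS and the highest other DHS. Genes of the other lists reported are named where fewer than 6 had or lacked a promoter DHS, and any others were chosen after their values were seen. The receptor genes, the gene lists and the words were chosen with earlier results of these data known. Alternatives were a promoter interval of 1 kb, the DHS centre, flanks of 10 kb and 100 kb, DHS at or above the median score, DHS merged at gaps under 500 bp, protein-coding transcripts only, genes without a promoter DHS at a score of 0, and whole DHS searched for words. Sequences were read from the mm9 assembly and printed only where they touch no annotated exon. Some items are not reported here.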

Additional observations from a re-analysis of the deposited data

How the results depend on the processing

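No paired analysis was possible because the series has 1 DNaseI library, and no replicate could be left out. The number of receptor genes with a promoter DHS was 8 under the score threshold, the centre rule and protein-coding transcripts, and 7 with the 1 kb interval, which removed Il5ra. The DHS in the windows numbered 117, 71 with a flank of 10 kb, 177 with 100 kb, 63 at or above the median score, 87 merged and 116 by centre. The share at a promoter was 34.2%, 18.8% with the 1 kb interval (all DHS 36.1%), 46.0% at or above the median score (62.1%), 35.2% with a flank of 10 kb and 29.1% with protein-coding transcripts (40.3%), below that of all DHS wherever both were computed. The median highest promoter score of 113 (all genes 101) became 95.6 with the 1 kb interval (102), 94.9 by centre (101), a setting chosen after seeing the data, and 95.6 with genes lacking a promoter DHS counted as 0 (33.5). The 5 genes whose highest DHS outside any promoter outscored the promoter became 2 with a flank of 10 kb, 6 with 100 kb (all genes 29.1%) and 6 by centre, settings chosen after seeing the data. Searching whole DHS gave STAT in 26.5% (all DHS 22.7%), STAT6 in 22.2% (20.2%), PU.1 in 14.5% (8.90%), Ets-IRF in 23.9% (24.7%), the interferon response word in 25.6% (24.6%), Ebf1 in 17.9% (17.7%), Runx in 55.6% (45.7%), E-box in 59.0% (50.6%), AP-1 in 23.1% (21.1%) and CTCF in 5.98% (5.59%), so that 6 of the 10 words (STAT, STAT6, Ets-IRF, Ebf1, AP-1 and CTCF) turned in direction against the central 300 bp. Whole DHS were not matched for length, and those of the windows had a median width of 841 bp against 760 bp over all DHS. At or above the median score, AP-1 was at 1.59% of the 63 DHS (6.53%), and the E-box and CTCF turned in direction. Of the 36 counts per gene under 4 settings, 22 moved past the tolerance of 1.5 times the main count; flanks and the score threshold add or remove DHS by construction. The unknown depth limits what a missing DHS shows.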

Other observations

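Among the receptors best known from other lineages, Csf2ra, the chain for GM-CSF, had the highest promoter score, 239, above each of the 9 receptor genes of B cells and at percentile 92.2 of all genes with a promoter DHS. Il9r followed at 70.2, Lifr at 47.4 and Il7r, which early B cells need, at 42.1, and the other 4 with a promoter DHS (Csf3r, Il12rb2, Il20ra and Prlr) scored from 11.9 to 16.6. These genes were singled out after their values were seen.

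The windows of the 10 ligand genes held from 0 to 13 DHS, with a median of 3.5 beside 5 over all genes. The highest, that of Ifng, held 13 DHS, as many as or more than 90.5% of protein-coding genes, with a highest promoter score of 17.5. The second, that of Il5, held 8 with no promoter DHS.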
